A study of Mus musculus with 6 samples.

Results

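The mRNA of 10 heat shock proteins and partner chaperones in the left ventricle (LV) was compared between mice with and without the *Lztr1* R409C/+ genotype. The genes were taken by name from a list drawn up with earlier results of these data known, as 4 stress-inducible members (*Hspa1a*, *Hspa1b*, *Dnajb1*, and *Hsph1*) and 6 members that are made in unstressed heart muscle, called constitutive (*Hsp90aa1*, *Hspa8*, *Hspb1*, *Hspb7*, *Cryab*, and *Bag3*). They are 10 of the 56923 genes listed in the deposited counts, and all 10 passed the filter on low counts that left 17212 genes for testing. The libraries came from 3 *Lztr1* R409C/+ mice, which the labels call mutant, and 3 WT mice, all aged 12 weeks, and each mouse gave 1 library. *Lztr1* R409C/+ mice carry a single amino acid substitution in 1 allele, made in the germ line with CRISPR/Cas9 and therefore present in all cells, in mice backcrossed to C57BL/6J. Per the study's methods, the mice were male, no drug is named for them, and their LVs were taken after perfusion with phosphate-buffered saline, whereas the labels name the tissue only as heart. LZTR1 is an adaptor of a ubiquitin ligase that marks RAS family proteins for degradation, and the question put to the 10 genes was whether the machinery that refolds or clears damaged proteins differed with the genotype.

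Chaperones bind unfolded proteins and help them to refold or hand them on for degradation. In the HSP70 cycle, a J protein delivers the client and stimulates ATP hydrolysis, and a nucleotide exchange factor then releases it, whereas small heat shock proteins hold unfolding proteins without using ATP and HSP90 acts late on signaling proteins. Under stress, heat shock factor 1 (HSF1) binds inverted repeats of the letters GAA, known as heat shock elements, before the inducible genes. In cardiac muscle, small heat shock proteins and BAG3 look after sarcomere proteins.

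Because HSF1 acts through such elements, the 250 bases before the gene start were searched for their letters. Sequences are credited to RefSeq on GRCm38.p6, whose table held 7 of the 10 genes. *Hsp90aa1*, *Hspa8*, and *Cryab* were not matched. Each line reads 5′ to 3′ on the strand of the gene, and capitals mark GAANNTTC or TTCNNGAA, the arrangements of 2 GAA units. The promoters of *Hspa1a* (chr17:34972157-34972406, minus strand), *Hspa1b* (chr17:34959239-34959488, minus strand), *Hsph1* (chr5:149636316-149636565, minus strand), and *Hspb1* (chr5:135887669-135887918, plus strand) hold a match, and that of *Dnajb1* (chr8:83607925-83608174, plus strand) is shown as the inducible member with none.
Hspa1a: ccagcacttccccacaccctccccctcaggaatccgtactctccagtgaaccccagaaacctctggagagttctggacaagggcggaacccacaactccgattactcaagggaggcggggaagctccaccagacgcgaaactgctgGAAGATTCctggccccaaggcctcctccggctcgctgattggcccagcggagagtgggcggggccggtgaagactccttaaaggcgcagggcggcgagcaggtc
Hspa1b: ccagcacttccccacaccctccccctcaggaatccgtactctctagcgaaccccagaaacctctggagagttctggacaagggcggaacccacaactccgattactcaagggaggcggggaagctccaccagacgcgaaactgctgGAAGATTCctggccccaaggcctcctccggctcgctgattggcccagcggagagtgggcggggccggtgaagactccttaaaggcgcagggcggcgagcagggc
Hsph1: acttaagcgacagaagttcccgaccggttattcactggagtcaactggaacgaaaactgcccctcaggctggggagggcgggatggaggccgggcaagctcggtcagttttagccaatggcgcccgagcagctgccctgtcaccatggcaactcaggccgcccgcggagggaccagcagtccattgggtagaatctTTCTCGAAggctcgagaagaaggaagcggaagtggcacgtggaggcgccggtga
Hspb1: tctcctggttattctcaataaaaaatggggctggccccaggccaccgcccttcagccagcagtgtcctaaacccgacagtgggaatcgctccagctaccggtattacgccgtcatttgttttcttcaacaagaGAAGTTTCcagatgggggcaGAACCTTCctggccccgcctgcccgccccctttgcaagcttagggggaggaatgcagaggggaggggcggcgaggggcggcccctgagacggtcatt
Dnajb1: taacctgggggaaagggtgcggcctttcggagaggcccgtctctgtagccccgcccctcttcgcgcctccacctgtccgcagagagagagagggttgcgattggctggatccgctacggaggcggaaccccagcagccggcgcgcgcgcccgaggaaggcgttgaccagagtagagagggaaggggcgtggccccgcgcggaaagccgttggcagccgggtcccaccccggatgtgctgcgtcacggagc

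*Hspa1a* and *Hspa1b*, neighboring genes for the same inducible HSP70 protein, had windows identical at 247 of 250 bases, and their match lay 104 to 97 bases before the start in both. *Hspb1* had 2 matches, and *Bag3* and *Hspb7* had none. Among all genes of the promoter table, 3932 of 27025 (14.5%) held GAANNTTC or TTCNNGAA on either strand, and 19 of 89 chaperone genes (21.3%) did. The inducible members with a match were 3 of 4, of which *Hspa1a* and *Hspa1b* have nearly the same window and are not independent. The 3-unit form GAANNTTCNNGAA, searched on both strands and containing the 2-unit forms, was in the window of none of the 7 members and of 139 of 27025 genes (0.514%). A match describes letters in this window and not binding.

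Levels are given as CPM, the usual share of the counts in a library, with library sizes scaled by the TMM method of edgeR. Per length of the canonical transcript, the 10 genes spanned a wide range of levels in WT mice. *Cryab* stood highest at 490 ± 65.6 CPM per kb (SD, n = 3), followed by *Hspa8* at 473 ± 31.9, *Hspb7* at 293 ± 97.0, *Hspb1* at 178 ± 96.8, and *Bag3* at 69.3 ± 8.07 CPM per kb. These are the small heat shock proteins of muscle, the constitutive HSP70, and its cochaperone. *Hsp90aa1* was at 51.2 ± 15.7, *Hsph1* at 11.1 ± 3.40, *Dnajb1* at 3.03 ± 0.139, *Hspa1b* at 1.02 ± 0.369, and *Hspa1a* at 0.873 ± 0.0725 CPM per kb. The 4 inducible members thus had the lowest levels of the 10. *Cryab* ranked 74th and *Hspa1a* 11652nd among 17127 tested genes with a length. Of the 9 pairs of neighbors in this order, the WT ranges overlapped for *Cryab* and *Hspa8*, *Hspb7* and *Hspb1*, *Bag3* and *Hsp90aa1*, and *Hspa1b* and *Hspa1a*, and did not for the other 5.

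After Benjamini-Hochberg adjustment over all genes, 0 of the 10 genes passed a p of 0.05 in edgeR's quasi-likelihood test, which called 0.0407% of the genes tested (0.0349% higher and 0.00581% lower in *Lztr1* R409C/+ mice). At an unadjusted p below 0.05, 2 of 10 genes, *Hsph1* and *Hsp90aa1*, were lower in *Lztr1* R409C/+ mice and 0 were higher, compared with 2.86% of all genes tested lower and 5.77% higher (8.63% in all). In the same 2 genes the 3 *Lztr1* R409C/+ mice lay below the 3 WT mice, which was so for 7.23% of all genes, and none of the 10 genes showed the opposite order, which held for 8.3% of all genes. DESeq2's Wald test and edgeR's exact test also called 0 of the 10 genes at an adjusted p of 0.05. Of all 17212 genes tested, they called only 158 and 137. The median log2 fold change of *Lztr1* R409C/+ over WT mice was -0.28 for the inducible members, with 0 above and 4 below 0 (1 and 3 under 6 of 15 other settings, upper quartile normalization among them), and -0.20 for the constitutive members, with 1 above and 5 below 0. The median over all genes tested was 0.012. Since LVs were sequenced in bulk, fewer cells of a type and less RNA per cell cannot be told apart.

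**Figure D1:**
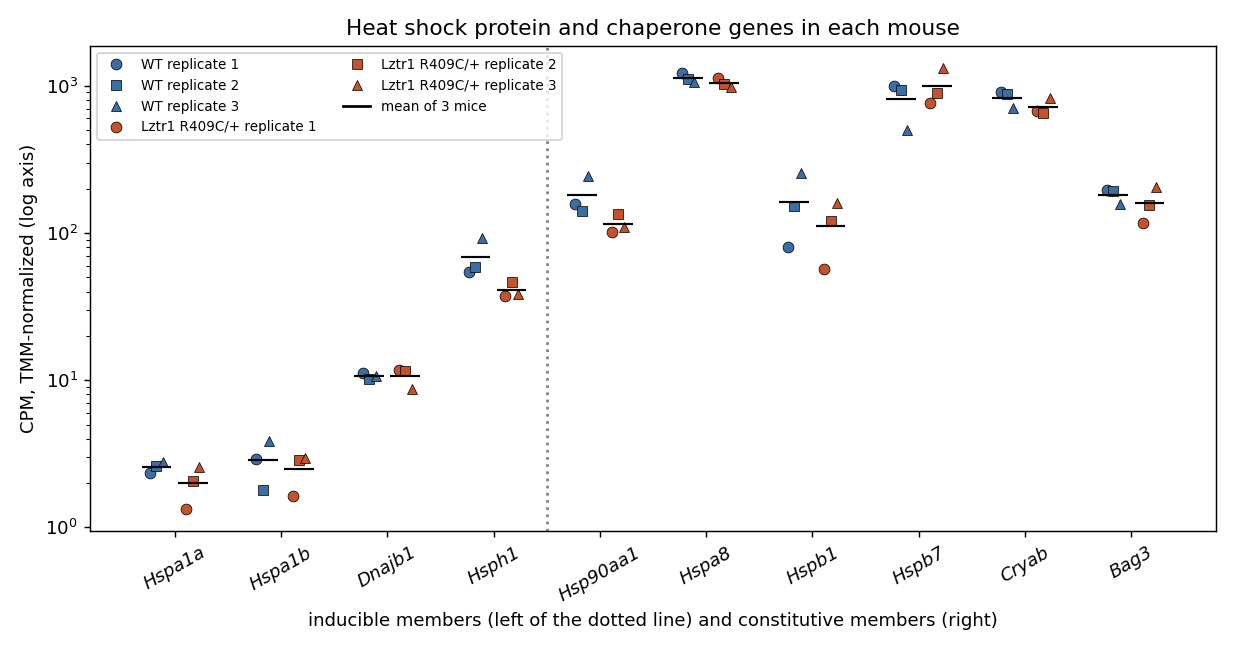
CPM (log axis) of each gene in each mouse, with WT mice in blue, *Lztr1* R409C/+ mice in orange, the marker shape giving the replicate number, and a bar at the mean of 3 mice. Only for *Hsph1* and *Hsp90aa1* do all 3 *Lztr1* R409C/+ mice lie below all 3 WT mice, and WT replicate 3 is the highest mouse for 5 genes.

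*Hspa1a* (ENSMUSG00000091971.4, chr17:35188166-35191132, minus strand, GRCm39, the build of all gene positions below) encodes the HSP70 that stressed cells make. It was at 2.36, 2.62, and 2.79 CPM in the WT mice, given throughout in the order of their replicate numbers, compared with 1.33, 2.06, and 2.59 CPM in the *Lztr1* R409C/+ mice. *Lztr1* R409C/+ replicate 1 was the lowest mouse, and replicate 3 lay within the WT range. Its log2 fold change was -0.37 (SE 0.30, 95% interval -1.03 to 0.28, adjusted p = 0.775 by the quasi-likelihood test), and it was -0.17 without *Lztr1* R409C/+ replicate 1, -0.61 without *Lztr1* R409C/+ replicate 3, and -0.10 without *Lztr1* R409C/+ replicate 1 and WT replicate 3. *Hspa1b* (ENSMUSG00000090877.4, chr17:35175412-35178214, minus strand), its near-identical copy, was at 2.93, 1.79, and 3.85 CPM in WT mice, compared with 1.64, 2.87, and 2.98 CPM in *Lztr1* R409C/+ mice. Here too the groups overlapped. Its log2 fold change was -0.20 (SE 0.34, 95% interval -0.93 to 0.54, adjusted p = 0.910), and it turned to 0.082 without WT replicate 3 and to 0.021 without *Lztr1* R409C/+ replicate 1. The copies share 47.1% of the 100-base windows of the *Hspa1a* transcript, so how reads were split between them is uncertain. Their sum, which does not depend on that split, was 5.45 ± 1.12 CPM in WT and 4.49 ± 1.35 CPM in *Lztr1* R409C/+ mice (n = 3 each), a log2 ratio of -0.28, with overlapping groups. Each copy rested on between 74 and 365 counts per mouse.

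*Dnajb1* (ENSMUSG00000005483.11, chr8:84334811-84339820, plus strand), the inducible J protein that loads clients onto HSP70, was at 11.2, 10.2, and 10.7 CPM in WT mice, compared with 11.7, 11.5, and 8.76 CPM in *Lztr1* R409C/+ mice. The highest and the lowest mouse were both *Lztr1* R409C/+. The log2 fold change was -0.0064 (SE 0.18, 95% interval -0.40 to 0.39, adjusted p = 0.995 by the quasi-likelihood test). Its direction turned in 4 of 15 alternatives, and it ran from -0.18 with library size only to 0.12 without *Lztr1* R409C/+ replicate 3.

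*Hsph1* (ENSMUSG00000029657.16, chr5:149537636-149560156, minus strand) encodes HSP110, a nucleotide exchange factor of HSP70 that takes part in dissolving aggregates. It was at 54.5, 59.0, and 92.8 CPM in WT mice, compared with 37.4, 46.4, and 38.6 CPM in *Lztr1* R409C/+ mice. The groups did not overlap, and WT replicate 3 stood 1.64-fold above the mean of the other WT mice. On the log2 scale, the fold change of -0.75 (SE 0.21, 95% interval -1.20 to -0.30) had an unadjusted p of 0.00329, rank 198 of 17212, and an adjusted p of 0.286 by the quasi-likelihood test. An exact permutation test of the log2 CPM, two-sided, gave p = 0.1, the smallest that 3 mice against 3 can give. Over 15 alternatives, the adjusted p ranged from 0.0526 with DESeq2's Wald test to 0.548 and the log2 fold change from -0.98 to -0.48, the latter without WT replicate 3.

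*Hsp90aa1* (ENSMUSG00000021270.14, chr12:110656842-110669166, minus strand), the HSP90 form that stress can raise, had a like profile, with 157, 141, and 244 CPM in WT mice, compared with 102, 134, and 109.8 CPM in *Lztr1* R409C/+ mice. All 3 *Lztr1* R409C/+ mice lay below the WT mice, and WT replicate 3 was again 1.64-fold above the mean of the other WT mice. The fitted log2 fold change was -0.65 (SE 0.21, 95% interval -1.11 to -0.18, unadjusted p = 0.0102, adjusted p = 0.436 by the quasi-likelihood test). Without WT replicate 3 it was -0.37, with an unadjusted p of 0.0596. The exact permutation test gave p = 0.1. Of its transcript, 44.1% of the 100-base windows also occur in other genes, mostly *Gm12346*, and with the counts of *Gm12346* added the log2 ratio was -0.65.

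HSP90 also has a constitutive form and cochaperones that deliver its clients. *Chordc1*, an HSP90 cochaperone, was at 58.5 ± 22.3 CPM in WT and 40.3 ± 7.14 CPM in *Lztr1* R409C/+ mice with WT replicate 3 highest, whereas *Hsp90ab1*, the constitutive HSP90, was at 1073 ± 81.1 and 899 ± 63.4 CPM. Its log2 fold change was -0.54 for *Chordc1* (unadjusted p = 0.0446) and -0.25 for *Hsp90ab1* (unadjusted p = 0.154) by the quasi-likelihood test, and the groups did not overlap for *Hsp90ab1*. Without WT replicate 3, *Chordc1* had -0.18 (unadjusted p = 0.333).

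**Figure D2:**
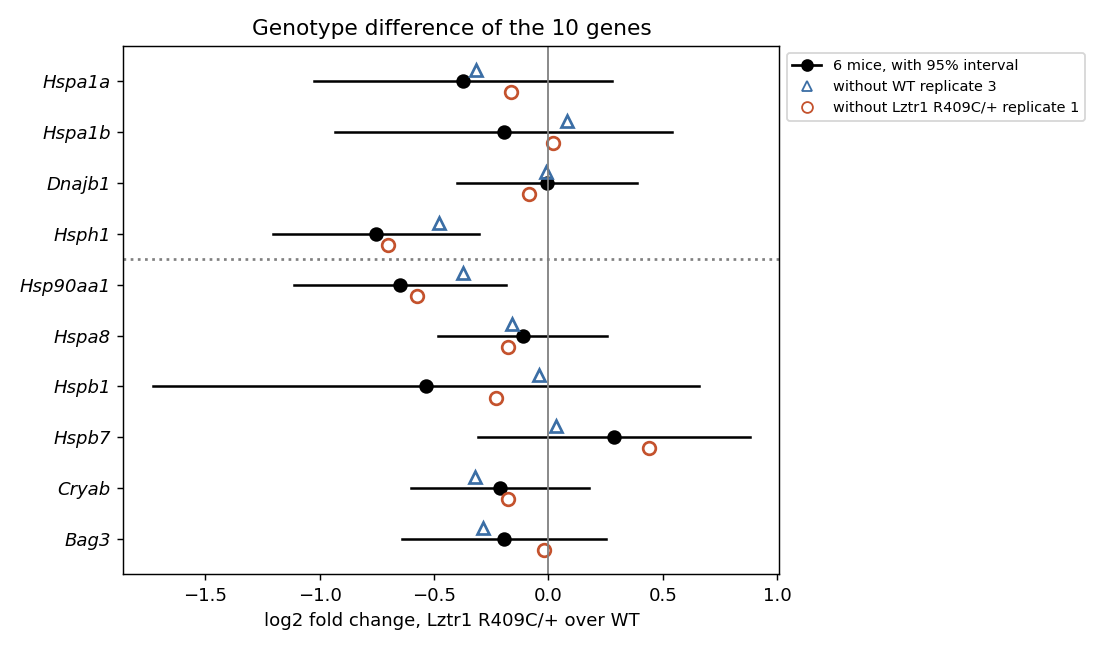
Log2 fold change of each gene (*Lztr1* R409C/+ over WT) with its 95% interval over 6 mice (black) and without WT replicate 3 (blue triangles) or *Lztr1* R409C/+ replicate 1 (orange circles). The intervals of *Hsph1* and *Hsp90aa1* lie below 0, and leaving out WT replicate 3 brings both nearer to 0, to -0.48 and -0.37.

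*Hspa8* (ENSMUSG00000015656.18, chr9:40711630-40731039, plus strand), the constitutive HSP70, was at 1213, 1118, and 1063 CPM in WT mice, compared with 1128, 1026, and 984 CPM in *Lztr1* R409C/+ mice. The groups overlapped, and the 6 mice were close to each other. The log2 fold change was -0.11 (SE 0.17, 95% interval -0.48 to 0.25, adjusted p = 0.893 by the quasi-likelihood test), and it was -0.060 without WT replicate 1 and -0.18 without *Lztr1* R409C/+ replicate 1. Although 62.8% of its 100-base windows also occur in other genes, adding *Gm15459*, which shares most of them, gave a log2 ratio of -0.12.

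*Hspb1* (ENSMUSG00000004951.11, chr5:135916760-135918417, plus strand), the small heat shock protein HSP25, varied most among the mice, with 80.1, 151, and 256 CPM in WT mice, compared with 57.1, 119.8, and 160.2 CPM in *Lztr1* R409C/+ mice. The highest mouse, WT replicate 3, was 4.49-fold above the lowest, *Lztr1* R409C/+ replicate 1, and the groups overlapped. On the log2 scale, the fold change was -0.53 (SE 0.50, 95% interval -1.73 to 0.66, adjusted p = 0.817 by the quasi-likelihood test). It was -0.043 without WT replicate 3 and 0.27 when *Lztr1* R409C/+ replicate 1 was left out as well. By contrast, it was -0.86 without WT replicate 1 and -0.88 without *Lztr1* R409C/+ replicate 3. The unadjusted p was below 0.05 in 3 of 15 alternatives, and the lowest adjusted p was 0.610. *Hsp25-ps1*, which shares 55.5% of the windows, was at 4.44 to 34.3 CPM, and adding it gave a log2 ratio of -0.57.

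*Hspb7* (ENSMUSG00000006221.8, chr4:141148090-141152625, plus strand), a small heat shock protein of heart muscle, was the only member with a log2 fold change above 0. It was at 992, 941, and 503 CPM in WT mice, compared with 759, 889, and 1319.9 CPM in *Lztr1* R409C/+ mice. WT replicate 3, the highest mouse for *Hspb1*, was the lowest for *Hspb7*, at 0.520 times the mean of the other WT mice. The fitted log2 fold change was 0.29 (SE 0.27, 95% interval -0.31 to 0.88, adjusted p = 0.813 by the quasi-likelihood test), and it was 0.033 without WT replicate 3 and 0.022 without *Lztr1* R409C/+ replicate 3.

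*Cryab* (ENSMUSG00000032060.11, chr9:50651859-50668567, plus strand), which encodes the desmin-binding chaperone αB-crystallin, was at 908, 876, and 702 CPM in WT mice, compared with 675, 651, and 820.1 CPM in *Lztr1* R409C/+ mice. WT replicate 3 was the lowest WT mouse and *Lztr1* R409C/+ replicate 3 lay within the WT range. Its log2 fold change was -0.21 (SE 0.18, 95% interval -0.60 to 0.18, adjusted p = 0.787 by the quasi-likelihood test). It was -0.32 without WT replicate 3 and -0.32 without *Lztr1* R409C/+ replicate 3, but -0.14 without WT replicate 1. *Hspb2* overlaps *Cryab* on the opposite strand with at most 3438 counts in a mouse, against at least 37420 for *Cryab*, and whether counting used the strand is not given in the sources used here. *Bag3* (ENSMUSG00000030847.9, chr7:128125283-128148705, plus strand), which links HSP70 to small heat shock proteins and to autophagy, was at 195, 192, and 157 CPM in WT mice, compared with 117, 155, and 205 CPM in *Lztr1* R409C/+ mice. Both the lowest and the highest mouse were *Lztr1* R409C/+. Its log2 fold change was -0.19 (SE 0.20, 95% interval -0.64 to 0.25, adjusted p = 0.833 by the quasi-likelihood test). It was -0.021 without *Lztr1* R409C/+ replicate 1 and -0.42 without *Lztr1* R409C/+ replicate 3, the latter with an unadjusted p of 0.0495.

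A pair of libraries recurred at the ends of these ranges. WT replicate 3 was the highest mouse for *Hspa1a*, *Hspa1b*, *Hsph1*, *Hsp90aa1*, and *Hspb1*, and *Lztr1* R409C/+ replicate 1 was the lowest for the same 5 genes and for *Bag3*. The share of counts from mitochondrially encoded genes was 13.8% in WT replicate 3 and 45.4% in *Lztr1* R409C/+ replicate 1, against 29.7% to 37.3% in the other 4 mice. The scaling factors of the libraries were also the extremes in these mice, at 1.39 and 0.800. Without both, the log2 fold change was -0.42 for *Hsph1* (unadjusted p = 0.0243 by the quasi-likelihood test) and -0.29 for *Hsp90aa1* (unadjusted p = 0.0913). The mean centred log2 CPM of the inducible members was 0.10, -0.040, and 0.44 in WT mice, compared with -0.43, -0.0019, and -0.070 in *Lztr1* R409C/+ mice. For the constitutive members it was 0.060, 0.14, and 0.14 in WT mice, compared with -0.40, -0.084, and 0.15 in *Lztr1* R409C/+ mice, where *Lztr1* R409C/+ replicate 1 again stood apart.

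**Figure D3:**
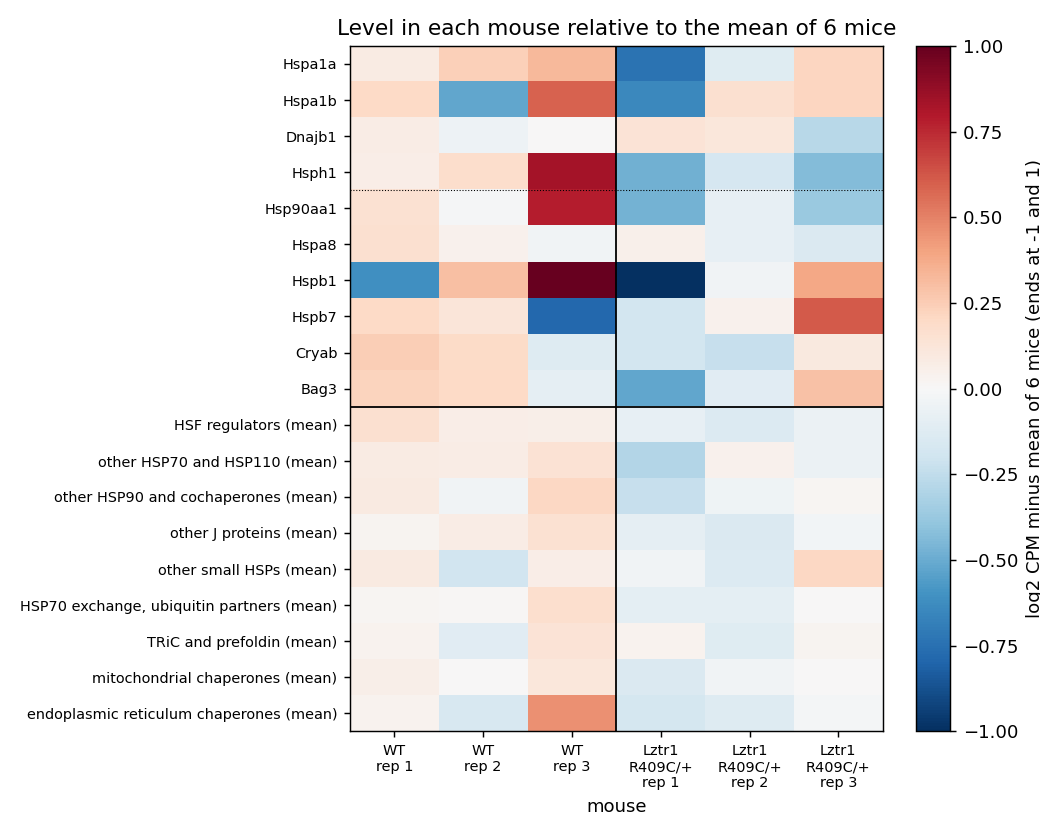
Color gives log2 CPM minus the mean over 6 mice, for each of the 10 genes (top) and as the mean of each other chaperone family (bottom), with 1 column per mouse and the scale ending at -1 and 1, which *Hspb1* reaches at both ends. WT replicate 3 is the high column for *Hsph1*, *Hsp90aa1*, *Hspb1*, and the endoplasmic reticulum chaperones and the low column for *Hspb7*.

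Genes with the most similar profile were sought among 13205 genes with a mean CPM of at least 1, by Pearson's r with each set's mean over 6 mice. For the inducible members these were *Spg7* (r = 0.995), *Tars2* (r = 0.990), *Polrmt* (r = 0.988), *Gtf3c4* (r = 0.988), and the HSP110 family member *Hspa4l* (r = 0.987). Without WT replicate 3 and *Lztr1* R409C/+ replicate 1, their r was between 0.802 and 0.949. For the constitutive members they were *Cpsf1* (r = 0.998), *Mov10* (r = 0.995), *Repin1* (r = 0.994), *Acad12* (r = 0.993), and *Hand2* (r = 0.991). Without *Lztr1* R409C/+ replicates 1 and 2, r was between 0.599 and 0.915. These values are the highest of many and the points share libraries, so they only describe the mice.

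The rest of the chaperone network, 98 tested genes of 99 listed, had a median log2 fold change of -0.15, with 22 above and 76 below 0, whereas 8853 of all genes tested were above 0 and 8359 below. *Cryaa* was the gene not tested. These lists also hold heat shock factors and mitochondrial proteases, which are not chaperones. Some genes, such as *Hspa9*, are in more than 1 family list but were counted once here. By the quasi-likelihood test 0 of 98 passed an adjusted p of 0.05, while at an unadjusted p below 0.05, 10 were lower (10.2%, compared with 2.86% of all genes) and 1 was higher (compared with 5.77% of all genes). The groups did not overlap for 17 lower genes (17.3%), against 7.23% of all genes. WT replicate 3 was the highest mouse for 54.1% of these genes, compared with 21.5% of all genes, and *Lztr1* R409C/+ replicate 1 was the lowest for 37.8%, compared with 20.1%. Without WT replicate 3 the median was -0.089, and 2 genes of 98 were lower at an unadjusted p below 0.05, near the 2.20% of all genes in that setting. The count was 7 without WT replicate 1 (2.08% of all genes) and 12 without WT replicate 2 (1.87% of all genes). It was 10 without *Lztr1* R409C/+ replicate 2 (2.97% of all genes) and 11 without *Lztr1* R409C/+ replicate 3 (2.85% of all genes). Without *Lztr1* R409C/+ replicate 1 the median was -0.15 and 3 genes were lower, compared with 2.73% of all genes. With a replicate block 5 of the 98 genes were lower, compared with 1.88% of all genes. The count was 5 with library size only (1.75% of all genes) and 6 with upper quartile normalization (1.77% of all genes). Without WT replicate 3, none of the 10 genes of these lists with the smallest p, the regulator *Hsf2* among them, kept an unadjusted p below 0.05 in the quasi-likelihood test. Their p then ran from 0.0542 to 0.333 with 1 mouse fewer. Some folds stayed near their values over 6 mice, as for *Hspa9* (-0.32, from -0.39) and *Clpx* (-0.36, from -0.46). Others moved further toward 0, as for *Chordc1* (-0.18, from -0.54) and *Hspa5* (-0.29, from -0.53). Without both libraries the median was -0.063, with 35 genes above and 63 below 0, and 1 gene was lower at an unadjusted p below 0.05, compared with 2.58% of all genes.

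Among the families, the endoplasmic reticulum chaperones had the lowest median, -0.31, with 3 of 17 genes above 0 and 15 of 17 highest in WT replicate 3. Without that mouse their median was -0.064. *Hspa5*, which encodes the lumenal HSP70 BiP, was at 570, 495, and 822 CPM in WT mice, compared with 375, 489.9, and 445 CPM in *Lztr1* R409C/+ mice, a log2 fold change of -0.53 (unadjusted p = 0.0255, adjusted p = 0.521 by the quasi-likelihood test). *Hsp90b1*, the HSP90 of that compartment, had -0.46 (unadjusted p = 0.0361). Without WT replicate 3, the values were -0.29 for *Hspa5* (unadjusted p = 0.146 by the quasi-likelihood test) and -0.24 for *Hsp90b1* (unadjusted p = 0.195). Other HSP70 and HSP110 genes had a median of -0.16, with 1 above and 8 below 0, which was -0.30 without WT replicate 2 and -0.099 without both WT replicate 3 and *Lztr1* R409C/+ replicate 1. *Hspa4*, an HSP110 relative, was at 176, 180.1, and 221 CPM in WT mice, compared with 133, 158, and 148 CPM in *Lztr1* R409C/+ mice, without overlap, with a log2 fold change of -0.40 (unadjusted p = 0.0302).

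Mitochondrial chaperones had a median of -0.082, with 4 of 12 above 0, which was -0.14 without WT replicate 3 and -0.046 without *Lztr1* R409C/+ replicate 1. *Hspa9*, the mitochondrial HSP70, was at 630, 624, and 723 CPM in WT mice, compared with 440.1, 541, and 528 CPM in *Lztr1* R409C/+ mice, a log2 fold change of -0.39 (unadjusted p = 0.0354 by the quasi-likelihood test). *Clpx*, an unfoldase of the matrix, had -0.46 (unadjusted p = 0.0150, adjusted p = 0.470), and *Hspd1*, the chaperonin HSP60, had -0.37 (unadjusted p = 0.0644), which was -0.21 without WT replicate 3. The groups did not overlap for any of these 3 genes. The window before *Hspd1* and that before its cochaperonin *Hspe1* were among the 3 chaperone promoters with GAANNTTCNNGAA, but these genes start on opposite strands of an overlapping stretch, and the same bases were counted for both.

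Outside the members, median log2 fold changes were -0.14 for the other HSP90 genes and cochaperones (2 of 15 above 0) and -0.17 for the other J proteins (3 of 18). They were -0.099 for the cytosolic chaperonin TRiC and prefoldin (5 of 14) and -0.092 for HSP70 exchange and ubiquitin partners (1 of 8). When each mouse was left out, the medians ranged from -0.25 to -0.066 for the other HSP90 genes and cochaperones and from -0.18 to -0.11 for the other J proteins. The ranges were -0.15 to -0.033 for TRiC and prefoldin and -0.23 to -0.042 for the exchange and ubiquitin partners. The highest of each was without WT replicate 3, except for the HSP90 list, where it was without *Lztr1* R409C/+ replicate 1. *Unc45b*, the myosin chaperone of striated muscle, had -0.41 (unadjusted p = 0.0404 by the quasi-likelihood test), *Cct8*, a TRiC subunit, had -0.46 (unadjusted p = 0.0275), and the prefoldin subunit *Pfdn5* had 0.60 (unadjusted p = 0.0359). *Cct8* had -0.28 without WT replicate 3, and *Pfdn5* had 0.38 without *Lztr1* R409C/+ replicate 3. *Dnaja1*, a J protein, was at 61.3 ± 16.5 and 48.5 ± 4.91 CPM in WT and *Lztr1* R409C/+ mice. The other small heat shock proteins had a median of -0.016 over 4 genes (0.027 with upper quartile normalization, 0.088 without WT replicate 3, and -0.094 without *Lztr1* R409C/+ replicate 3), with log2 fold changes of -0.11 for *Hspb6*, -0.059 for *Hspb8*, and 0.059 for *Hspb2* (-0.19 with library size only). *Hspb6*, like *Hspb7*, was low in WT replicate 3, at 311 CPM against 671 and 716 CPM in the other WT mice. Without WT replicate 3, *Hspb6* had -0.41 (unadjusted p = 0.0311 by the quasi-likelihood test). It turned to 0.025 without WT replicate 1 and to 0.091 without WT replicate 2. Of the regulators, *Hsf1* had a log2 fold change of -0.091 (unadjusted p = 0.634) and *Hsf2* -0.49 (unadjusted p = 0.0333, groups overlapping). By the quasi-likelihood test, *Hsf2* had -0.74 without *Lztr1* R409C/+ replicate 2 (unadjusted p = 0.00424) and -0.36 without *Lztr1* R409C/+ replicate 3 (unadjusted p = 0.118).

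**Figure D4:**
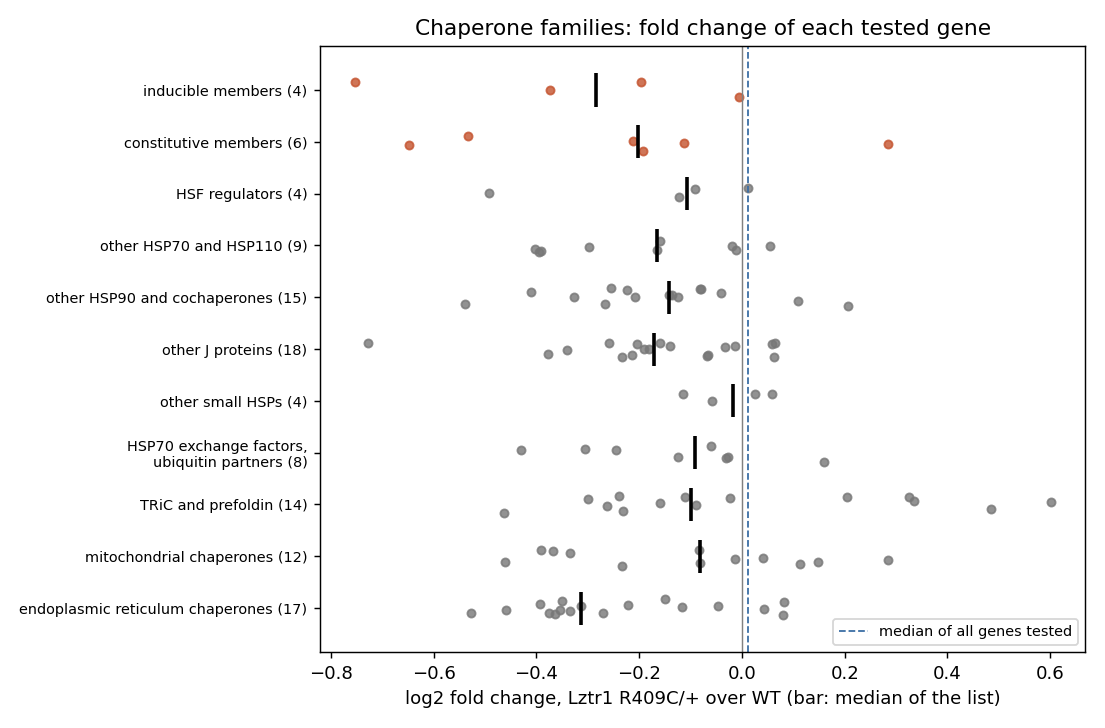
Log2 fold change (*Lztr1* R409C/+ over WT) of each tested gene by family, with the number of genes in parentheses, a bar at each median, orange points for the 10 genes, and a dashed line at the median of all genes tested. The medians run from -0.016 for the other small heat shock proteins, which turns to 0.027 with upper quartile normalization and to 0.088 without WT replicate 3, to -0.31 for the endoplasmic reticulum chaperones.

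Other measures differed between the mice too, and their part in the values above was not tested. Cardiomyocyte markers, which all mice expressed, summed to between 36853 and 40968 CPM in WT and between 27617 and 39463 CPM in *Lztr1* R409C/+ mice, lowest in *Lztr1* R409C/+ replicate 1, with 5 of 7 genes below 0. All 6 macrophage markers had a log2 fold change above 0 without overlap, an order that held for 8.3% of all genes, with sums of 145.5 to 172 CPM in WT and 229.7 to 335 CPM in *Lztr1* R409C/+ mice. The 12 immediate early genes, which many stimuli induce rapidly, were all above 0, with sums of 179 to 222 CPM in WT and 178 to 291 CPM in *Lztr1* R409C/+ mice, and 5 of them were higher at an unadjusted p below 0.05, compared with 5.77% of all genes. Erythroid markers summed to between 579 and 1478 CPM in WT and between 1041 and 2624 CPM in *Lztr1* R409C/+ mice. Endothelial, fibroblast, smooth muscle, and atrial marker sums overlapped between the groups. Within the first 3 of these lists the markers went both ways, with log2 fold changes from -0.24 to 0.52 for the 6 endothelial markers, from -0.25 to 0.61 for the 6 fibroblast markers, and from -0.71 to 0.29 for the 6 smooth muscle and pericyte markers, whereas the 2 atrial markers tested had 0.53 and 0.058. The groups did not overlap for 2 higher endothelial, 2 higher fibroblast, and 2 lower smooth muscle markers, orders that held for 8.3% (higher) and 7.23% (lower) of all genes. *Lztr1* itself was at 24.2, 24.2, and 22.2 CPM in WT mice, compared with 23.8, 27.9, and 25.3 CPM in *Lztr1* R409C/+ mice, a level that does not check the genotype, since the allele differs by a substitution.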

How the data were processed

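For each mouse, raw counts of reads per gene were deposited by the authors, made per the study's methods and the submitters' notes with Trim Galore, HISAT2, and StringTie on GRCm39 after removal of rRNA. The annotation release and the strand setting of counting are not given in the sources used here. From the authors' deposited edgeR table, whose log2 fold changes, log2 CPM, and p-values were not used, only gene names were taken, for 12629 genes. Other names, gene positions, and lengths are from GENCODE on GRCm39, and promoters from RefSeq on GRCm38.p6, which were never mixed.

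Counts were analyzed in R 4.3.3 with edgeR 4.0.16 (filterByExpr, TMM, robust quasi-likelihood test, Benjamini-Hochberg adjustment over 17212 genes, threshold 0.05, two-sided). CPM uses TMM-scaled library sizes. Total counts were 66130887 to 72641124 per mouse, so that 3 counts equal 0.0317 to 0.0541 CPM. The common biological coefficient of variation was 26.1%. Replicate libraries differed beyond sampling noise. The mice of a group are separate animals, and p-values measure the spread between them.

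The 10 genes and all lists were chosen with earlier results of these data known. Named beside the 10 genes are *Lztr1*, 11 genes of the chaperone lists chosen by name, and the 5 genes most similar to each set. Also named are the 10 genes of these lists outside the members with the smallest unadjusted p, some of them also chosen by name. *Hspe1* was named for its promoter after its values were seen, and *Cryaa* as the untested gene. A few of these are named without values of their own. Alternatives were other normalizations, DESeq2 1.42.0, edgeR's exact test, other filters, a replicate block, and leaving out each mouse. The setting without both extreme mice, and all alternatives for the median of the other chaperones as a list, were added after seeing the data. On simulated counts for this comparison (16787 genes), with 196 tested genes changed by a log2 fold change of 1, the quasi-likelihood test called 77 of them and 7 unchanged genes.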

Additional observations from a re-analysis of the deposited data

How the results depend on the processing

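The 10 genes had at least 74 counts in every mouse, so detection was not limited by depth. The number of genes past the threshold was 7 (6 higher and 1 lower). It was 21 (15 and 6) with library size only, 158 (143 and 15) with DESeq2's Wald test, 137 (124 and 13) with edgeR's exact test, 20 (19 and 1) with no filter on low counts, and 2 to 4 when each mouse was left out. Without WT replicate 3 and *Lztr1* R409C/+ replicate 1 it was 1. None of these settings called any of the 10 genes, and the cause of the differences was not tested. With library size only, the median log2 fold change of all genes moved to -0.14, that of the inducible members to -0.44, that of the constitutive members to -0.30, and that of the other chaperones to -0.32. The inducible members had 1 gene above and 3 below 0 with upper quartile normalization, with at least 10 counts in every mouse, and without WT replicate 1, WT replicate 3, *Lztr1* R409C/+ replicate 1, or *Lztr1* R409C/+ replicate 3. When each mouse was left out, the medians ranged from -0.47 to -0.13 for the inducible members, from -0.37 to -0.14 for the constitutive members, and from -0.21 to -0.089 for the other chaperones.

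The deviations of same-numbered mice had correlations of 0.0022, 0.010, and -0.049, and those of other combinations ran from -0.042 to 0.038. The labels do not say what the numbers stand for, and such values cannot exclude a shared litter or preparation. Whether the numbers pair the samples is therefore not known, and the main test treated the mice as unpaired. With a replicate block, 1 gene passed the threshold (0 higher and 1 lower), and the medians were -0.30 for the inducible members, -0.22 for the constitutive members, and -0.15 for the other chaperones.

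Of 420 planned combinations of a named gene and a setting, 407 kept the direction and the side of the threshold and 13 reversed. *Dnajb1* reversed with upper quartile normalization (0.037), with at least 10 counts in every mouse (0.0014), without WT replicate 1 (0.028), and without *Lztr1* R409C/+ replicate 3 (0.12). *Hspa1b* reversed without WT replicate 3 (0.082) and without *Lztr1* R409C/+ replicate 1 (0.021). In the setting without both mice, which is not among the 420, *Hspa1b* (0.31) and *Hspb1* (0.27) also turned. With library size only, *Hspb2* (-0.19) and *Lztr1* (-0.014) reversed. *Hspb2* also reversed without WT replicate 2 (-0.27) and without *Lztr1* R409C/+ replicate 3 (-0.034), *Hsf1* without WT replicate 1 (0.042), and *Hspb6* without WT replicate 1 (0.025) and without WT replicate 2 (0.091). When each mouse was left out in turn, or both mice together, the log2 fold change ranged from -0.45 to 0.31 for *Hspa1b*, from -0.086 to 0.12 for *Dnajb1*, from -0.88 to 0.27 for *Hspb1*, from -0.25 to 0.042 for *Hsf1*, from -0.27 to 0.48 for *Hspb2*, and from -0.43 to 0.091 for *Hspb6*.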
